A study of Mus musculus with 18 samples.

Results

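Col1a1, Col1a2, Fn1 and Thy1 are genes of the fibroblast matrix and cell surface, and the chromatin around them was described here from histone peak lists of mouse embryonic fibroblasts. The members were all peaks of the 8 lists that overlapped 4 windows of build NCBIM37 by at least 1 base. The windows were chromosome 11 from 94.77 to 94.83 Mb for Col1a1, chromosome 6 from 4.43 to 4.51 Mb for Col1a2, chromosome 1 from 71.61 to 71.73 Mb for Fn1 and chromosome 9 from 43.83 to 43.87 Mb for Thy1. They held 66 of the 225177 peaks. The rule for the windows uses coordinates only, and the 4 genes were chosen with earlier results of these data known.

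The fibroblasts came from a mixed B6;129 background and all carried a conditional knockout allele of the retinoblastoma gene Rb, in the controls as well. Adenovirus delivered the Cre recombinase, which deletes Rb, or green fluorescent protein (GFP) as the control, and the cells were then expanded for at most 3 passages. Whether Rb was lost from the Cre cells was not examined here. None of the cells used here received the 4F construct. Chromatin immunoprecipitation was done for H3K4me3 and pan-acetylated H3 (H3Ac), which mark active promoters, and for acetylation also enhancers, and for H3K27me3 and H3K9me3, which mark Polycomb-silenced genes and heterochromatin. Each mark had 1 library per condition, so that differences between GFP and Cre cells are given as values without a test. The labels call each of these libraries biological replicate 3. The histone input libraries are labelled replicate 1 for GFP and replicate 3 for Cre cells. The labels do not say whether a library came from the cells of 1 embryo or of several.

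Fibroblasts make most of the collagen and fibronectin of connective tissue. Type I collagen is the main fibre protein of skin, bone and tendon, and its triple helix is wound from chains encoded by Col1a1 and Col1a2. Fibronectin, from Fn1, is secreted, assembles into fibrils on the cell surface and binds cells through integrins. Thy1, also called CD90, is a glycoprotein held on the outer membrane by a lipid anchor, is widely used to mark fibroblasts and is among the surface proteins lost early when fibroblasts are reprogrammed to pluripotent cells.

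All 4 windows held peaks of H3K4me3 and H3Ac, marks of active promoters, in both conditions, and none held H3K27me3. Each window held an H3K4me3 peak with a score of 3100 in the GFP list and in the Cre list. The score is the authors' own, and 3100 is a value shared by many peaks: it was held exactly by 4367 H3K4me3 peaks of the GFP list, which has 23808, and by 5743 of the Cre list, which has 22621. A further 205 GFP and 212 Cre H3K4me3 peaks had a higher value, up to the same maximum of 3233.06 in both lists. The upper scores are saturated, so that whether those peaks were stronger than the ones at 3100 cannot be told. With ties taken at the middle, 89.97% of GFP and 86.4% of Cre H3K4me3 peaks ranked lower than these leading peaks, where the leading peak is the one with the highest score in a window. Scores tied at 3100 cannot rank the 4 genes against each other, so that their widths are given below. The 4 genes are themselves markers of fibroblasts, so that their active marks are no independent check of the cell type.

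**Figure D1:**
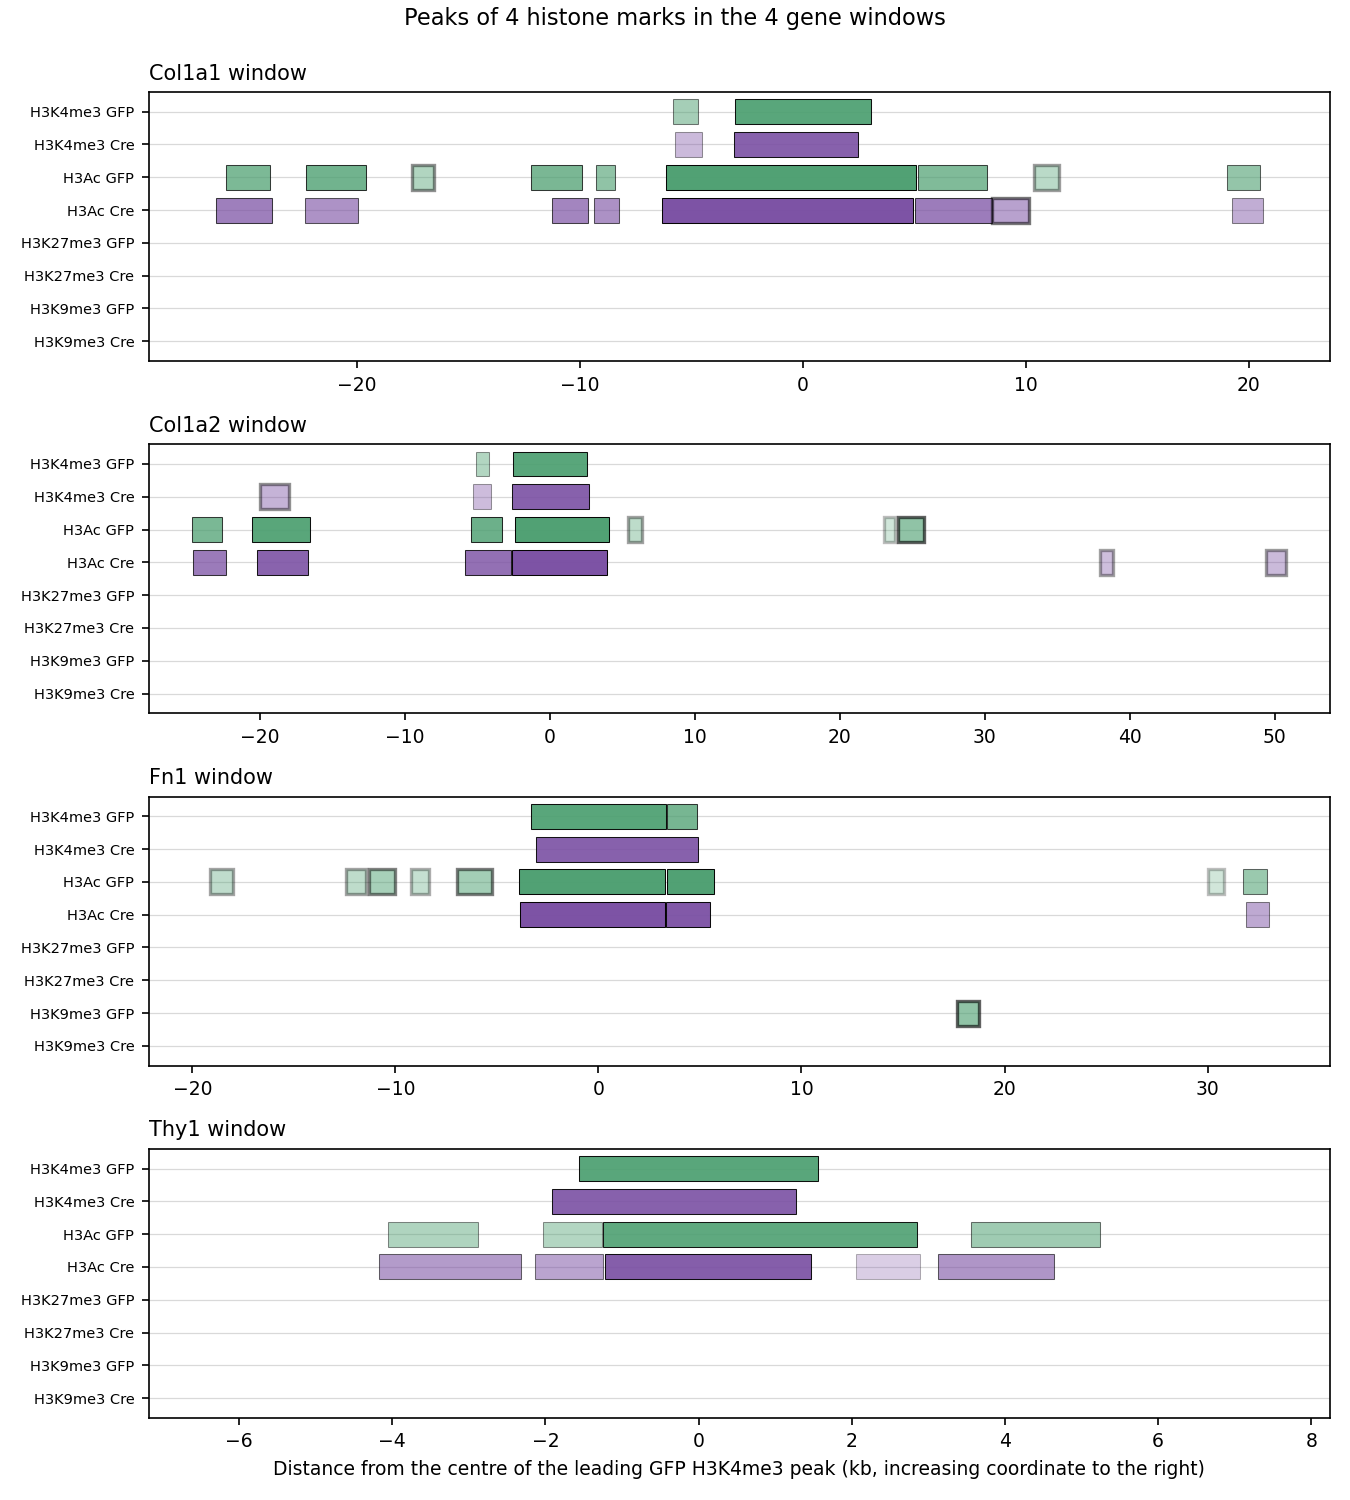
Peaks of the 4 marks in GFP (green) and Cre (purple) lists, by distance in kb from the centre of the leading GFP H3K4me3 peak, in the part of each window that holds peaks. Darker fill stands for a higher score rank within the list and thick outlines for peaks without a counterpart in the other condition. The tracks of H3K27me3 are empty in all 4 windows, and H3K9me3 has 1 GFP peak, in the Fn1 window.

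Over the 4 windows together, 300 kb in all, the H3K4me3 lists held 7 peaks in GFP and 7 in Cre cells. Of these, 0 GFP peaks and 1 Cre peak had no counterpart, meaning no peak of the same mark in the other list that overlapped by at least 1 base. In the whole lists 10.7% of GFP and 12.6% of Cre H3K4me3 peaks had none. For H3Ac the windows held 29 peaks in GFP and 22 in Cre cells, of which 11 and 3 had no counterpart, beside 26.6% and 15.4% of the whole lists. The covered length of H3K4me3 was 24.5 kb in GFP and 26.4 kb in Cre cells, a Cre to GFP ratio of 1.08, and that of the whole lists had the same ratio, 1.08. For H3Ac it was 69.2 kb and 61.4 kb, a ratio of 0.888, beside 0.847 for the whole lists. H3Ac peaks covered 23.1% of the windows in GFP and 20.5% in Cre cells, where they covered 3.39% and 2.87% of the genome (up to the last peak on each chromosome).

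**Figure D2:**
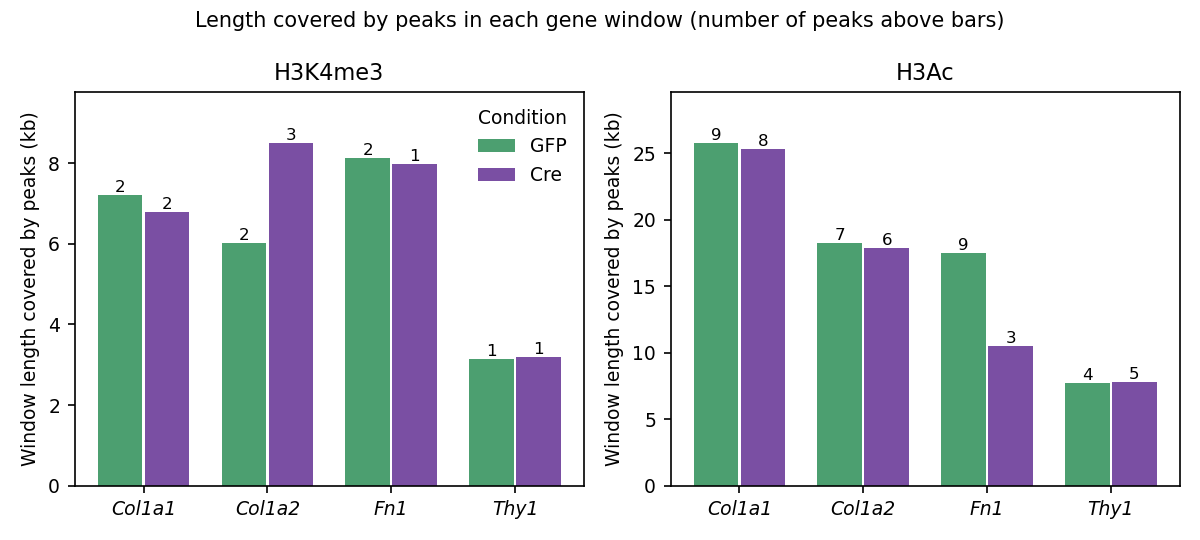
Length of each gene window covered by H3K4me3 (left) and H3Ac (right) peaks, in kb, for the GFP and the Cre list, with the number of peaks above each bar and no error bars, since there is 1 library each. The bars of a gene differ most for H3Ac in the Fn1 window, 17.5 kb in GFP and 10.5 kb in Cre cells, and for H3K4me3 in the Col1a2 window, 6.03 kb and 8.49 kb.

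All 11 GFP H3Ac peaks without a counterpart scored below the median of their list, 224, and all 3 Cre peaks without one scored below 227, the median of theirs. The division at the median was chosen after these values were seen. Among the GFP H3Ac peaks in the windows that scored below the median, 11 of 17 had no counterpart, beside 49.1% of all such GFP peaks. Among the Cre peaks the count was 3 of 11, beside 30.1%. Peaks at or above the median numbered 12 in GFP and 11 in Cre cells, and 0 of them lacked a counterpart, beside 4.12% and 0.759% of the lists. The whole lists thus had the same pattern, with most unmatched peaks among the weak ones. The GFP H3Ac list was also the longer, with 48778 peaks against 42660. With both lists held to the number of peaks in the shorter, the windows had 26 GFP H3Ac peaks, 8 of them without a counterpart, and the part of read depth was not tested.

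Col1a1 had the widest acetylated region of the 4 genes. In GFP cells its leading H3Ac peak spanned 11211 bases on chromosome 11 at 94793567 to 94804777, and in Cre cells 11254 bases at 94793400 to 94804653, both with a score of 3100. Only 0.146% of GFP and 0.103% of Cre H3Ac peaks were as wide or wider. The edges of the 2 peaks lay 167 and 124 bases apart. The leading H3K4me3 peak lay inside it and was narrower, with 6119 bases at 94796670 to 94802788 in GFP cells and 5552 bases at 94796654 to 94802205 in Cre cells. It began at nearly the same base in both, 16 bases apart, and ended 583 bases earlier in Cre cells. As wide or wider were 0.680% of GFP and 1.56% of Cre H3K4me3 peaks.

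A second, weak H3K4me3 peak stood at the lower-coordinate end of the acetylated region, at 94793914 to 94794995 in GFP cells with a score of 211, and at 94793978 to 94795214 in Cre cells with a score of 125. It ranked above 33.8% of the GFP and 18.3% of the Cre list. Over the 19333 regions with H3K4me3 in both lists its rank change, Cre minus GFP, was -15.3 percentile points, below the 10th percentile of all such regions, -9.30. Its width was 1082 bases in GFP and 1237 in Cre cells.

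Acetylation around Col1a1 reached far beyond the H3K4me3 peaks. Besides the leading peak, the window held 8 further H3Ac peaks in GFP and 7 in Cre cells, none of which overlapped H3K4me3. In GFP cells they scored between 81.5 and 659, and in Cre cells between 108 and 463. On the lower-coordinate side, a group at 94773838 to 94791300 in GFP cells held 5 peaks, and 4 of them had Cre counterparts. The strongest of the group (94777442 to 94780141) scored 659 in GFP cells and ranked above 72.4% of its list. Its Cre counterpart (94777406 to 94779778) scored 217 and ranked above 48.9%. Over the 33794 regions with H3Ac in both lists the rank change was -23.3 percentile points, and 6.38% of regions had a lower value. Its width was 2700 bases in GFP and 2373 in Cre cells. The neighbouring peak, at 94773838 to 94775824 in GFP cells, ranked above 63.98% of the GFP and 63.3% of the Cre list, with scores of 415 and 414. Over the shared regions its rank change was 4.72 percentile points, and 67.7% of regions had a lower value.

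Col1a2 was marked over a region of similar kind. Its leading H3K4me3 peak spanned 5121 bases on chromosome 6 at 4455148 to 4460268 in GFP cells and 5282 bases at 4455118 to 4460399 in Cre cells. As wide or wider were 1.46% and 1.87% of the H3K4me3 lists. The leading H3Ac peak began near the same place and ran further to higher coordinates, by 1559 bases in GFP and 1295 bases in Cre cells. It spanned 6521 bases at 4455307 to 4461827 in GFP cells and 6601 bases at 4455094 to 4461694 in Cre cells, both with a score of 3100. A smaller doubly marked region lay just before it: an H3Ac peak at 4452296 to 4454401 with a score of 821 in GFP cells, and at 4451883 to 4455032 with a score of 847 in Cre cells. That Cre peak was 3150 bases wide against 2106, a log2 difference of 0.58 (Cre over GFP), and 95.6% of the shared H3Ac regions had a lower value. In Cre cells a gap of only 61 bases parted it from the leading H3Ac peak. On merging within 1000 bases the smaller and the leading H3Ac peak were joined in both lists. The difference in width thus depends on how peaks were split. The H3K4me3 peak inside the smaller H3Ac peak scored 124 in GFP and 115 in Cre cells.

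The promoter sequence is shown because these strongest marks of the Col1a2 window are marks of promoters. Of the 4 genes, 1 matched an entry of the RefSeq promoter table, Col1a2. The 250 bases before its annotated start (RefSeq, build GRCm38.p6, chr6:4505368-4505617, plus strand) are printed 5′ to 3′, with 3 motif matches, a CCAAT box and GC boxes, in capitals.
Col1a2: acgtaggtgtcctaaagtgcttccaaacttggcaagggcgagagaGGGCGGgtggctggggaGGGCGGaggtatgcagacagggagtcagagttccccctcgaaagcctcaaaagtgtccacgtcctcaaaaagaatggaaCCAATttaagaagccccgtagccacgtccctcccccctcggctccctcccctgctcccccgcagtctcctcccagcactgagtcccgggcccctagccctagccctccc

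The stretch held CCAAT, the core of sites bound by the factor NF-Y, with its first base 109 bases before the start. The GC box GGGCGG, the core of sites bound by Sp1, began 205 and 188 bases before it. All motifs were searched on both strands, and the 32851 promoter entries of this length held the CCAAT box in 33.8% and the GC box in 32.7% of cases. The TATA box, searched as TATAAA, was not found in the stretch, and 12.4% of entries held it. It held 11 CG dinucleotides, where the median entry held 6, and 62% of its bases were G or C against a median of 52.4%. The table is on another build than the peaks, so that whether these 250 bases lie inside the H3K4me3 peak was not determined.

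Col1a2 also had a strongly acetylated region far from its leading peak. In the GFP list an H3Ac peak of 4048 bases at 4437162 to 4441209 scored 2358 and ranked above 90.5% of the list, and in the Cre list a peak of 3513 bases at 4437509 to 4441021 scored 1569.9 and ranked above 84.8%. It lay 13.9 kb in GFP and 14.1 kb in Cre cells from the leading H3K4me3 peak, on the side of lower coordinates. The neighbouring genes of Col1a2 in RefSeq are Bet1 on that side and Casd1 on the other. As background, mouse Col1a2 is known to have an enhancer far upstream of its promoter that is active in fibroblasts, and whether the peak covers it was not determined. No other H3Ac peak of the 4 windows that was apart from the leading H3K4me3 and H3Ac peaks by over 1 kb scored above 659.

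Within this region the Cre list held an H3K4me3 peak that the GFP list did not. It spanned 1972 bases at 4437763 to 4439734, had a score of 172 and covered 56.1% of the Cre H3Ac peak. It ranked above 24.1% of the Cre H3K4me3 list, and it was the only H3K4me3 peak of the 4 windows without a counterpart. Of the Cre H3K4me3 peaks that scored below their list median of 887, 25% had no GFP counterpart. With it, H3K4me3 covered 8.49 kb of the Col1a2 window in Cre cells, against 6.03 kb in GFP cells. The underlying acetylation ranked 5.37 percentile points lower in Cre cells over the shared regions, inside the 10th to 90th percentile range of all shared H3Ac regions, -17.9 to 17.3. Read depth is unknown here, and its part in the presence of this peak was not tested.

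Beyond the leading region, on the side of higher coordinates, the 2 lists shared no H3Ac peak in the Col1a2 window. The GFP list held H3Ac peaks at 4463107 to 4464056, at 4480776 to 4481552 and at 4481709 to 4483519, with scores of 76.2, 51.2 and 219.6. The Cre list held peaks at 4495631 to 4496546 and at 4507084 to 4508506, with scores of 76.3 and 82.7. All 5 were in the lower part of their lists, the strongest above 49.4% of GFP peaks. Of all H3Ac peaks scoring below their list median, 49.1% of GFP and 30.1% of Cre peaks had no counterpart. At a score of at least 100, 1 GFP and 0 Cre H3Ac peaks of the Col1a2 window were unmatched.

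**Figure D3:**
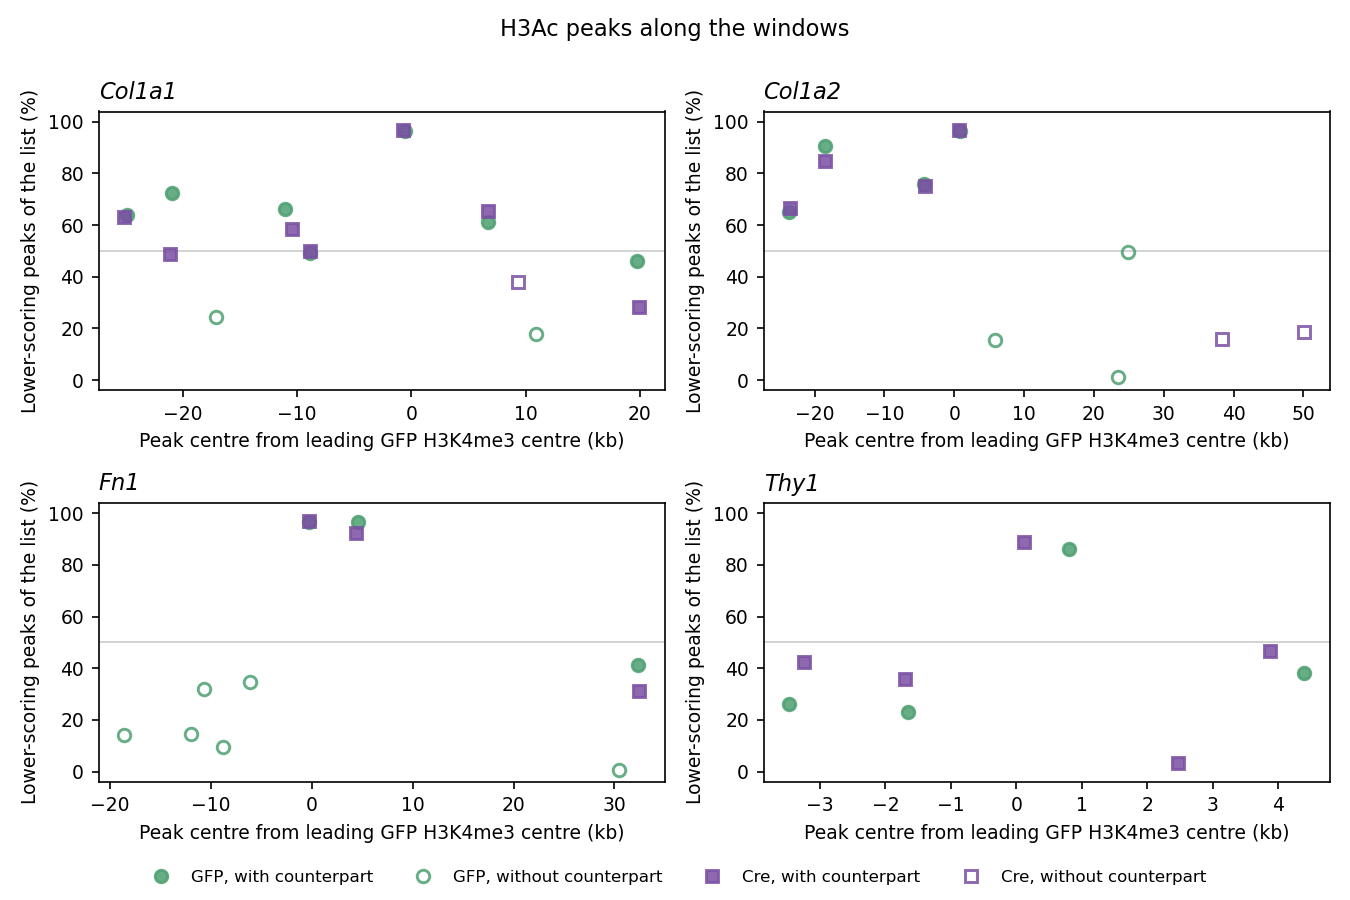
Score rank of every H3Ac peak, as the percent of its list with a lower score, against the distance of its centre from the leading GFP H3K4me3 peak in kb. Tied scores are taken at the middle. Filled symbols have a counterpart in the other condition and open symbols have none. Every open symbol lies below 50%, the leading peaks lie above 85%, and the peak near -18 kb of Col1a2 stands at 90.5% in GFP and 84.8% in Cre cells.

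Fn1 had the widest H3K4me3 mark of the 4 genes. In Cre cells a single peak of 7977 bases on chromosome 1 at 71693414 to 71701390 had a score of 3100, and 0.279% of the list was as wide or wider. In GFP cells the same stretch was called as 2 peaks, of 6626 bases at 71693194 to 71699819 with a score of 3100 and of 1493 bases at 71699889 to 71701381 with a score of 1629.5. The gap between them was 69 bases. Together they covered 8119 bases, so that the marked length differed by a log2 value of -0.03 (Cre over GFP). The lists thus differed in the number of peaks there, by the gap, and little in the marked length.

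H3Ac was interrupted at the same place. Its 2 strong Fn1 peaks were at 71692595 to 71699799 and at 71699879 to 71702219 in GFP cells, both with a score of 3100. In Cre cells they ran at 71692622 to 71699806 with a score of 3100 and at 71699854 to 71702000 with a score of 2645. The gaps measured 79 bases in GFP and 47 bases in Cre cells, and 34 bases (71699820 to 71699853) were common to these gaps and the H3K4me3 gap of GFP cells. Such gaps of at most 200 bases stood between 7.78% of neighbouring GFP and 8.58% of neighbouring Cre H3Ac peaks. Of the GFP H3Ac gaps 25.1% overlapped a Cre H3Ac gap, and 11.6% overlapped a GFP H3K4me3 gap. The main Fn1 H3Ac peak had 7205 bases in GFP and 7185 in Cre cells, with edges 27 and 7 bases apart.

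Among the 4 genes, the number of H3Ac peaks differed most at Fn1, 9 in GFP against 3 in Cre cells. The GFP list held 5 H3Ac peaks between 71677359 and 71691266, on the side of lower coordinates, and the Cre list held 0 there. Their scores were 73.8, 74.9, 121, 64.0 and 131, and their widths ran from 878 to 1708 bases. A sixth GFP peak without a counterpart (71726530 to 71727301) scored 50.7. In all, 6 of the 9 GFP and 0 of the 3 Cre H3Ac peaks of the Fn1 window lacked a counterpart. The covered length was 17.5 kb in GFP and 10.5 kb in Cre cells, a ratio of 0.599, whereas it was 0.985 for Col1a1, 0.979 for Col1a2 and 1.01 for Thy1. Of the 7 GFP H3Ac peaks there that scored below the list median, 6 lacked a counterpart, beside 49.1% of all such GFP peaks. At a score of at least 100 the GFP list had 5 H3Ac peaks in the window, 2 of them without a counterpart. On merging peaks within 1000 bases it had 5, with 3 unmatched, against 2 Cre peaks, and with lists of equal length 7, with 4 unmatched. In a window widened by 10000 bases on each side there were 12 GFP and 6 Cre peaks, with 6 GFP peaks unmatched. The covered length in GFP and Cre cells was 13.7 and 10.5 kb at a score of at least 100. It was 19.5 and 10.5 kb on merging, 15.8 and 10.5 kb with lists of equal length and 23.8 and 15.3 kb in the widened window. The size of the Fn1 difference in length thus depends on the setting.

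The Fn1 window also held the 1 peak of a silencing mark in the set. A GFP H3K9me3 peak of 1102 bases at 71714152 to 71715253 scored 80.9, ranked above 49.5% of its list and overlapped no other mark. The Cre list had no H3K9me3 peak in the window, beside 81% of all GFP H3K9me3 peaks without a Cre counterpart. The Cre H3K9me3 list was far shorter, with 3985 peaks against 10885.

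Thy1 had the narrowest leading peaks of the set. Its H3K4me3 peak was 3131 bases wide on chromosome 9 at 43851191 to 43854321 in GFP cells and 3189 bases at 43850845 to 43854033 in Cre cells, both with a score of 3100. Both edges lay at lower coordinates in Cre cells, by 346 and 288 bases. At least as wide were 8.93% of GFP and 12.1% of Cre H3K4me3 peaks. Among the peaks with a score of 3100 or more, whose median width was 2831 bases in GFP and 2933 in Cre cells, the Thy1 peak was wider than 61.7% and 59.6%. The leading H3K4me3 peaks of the other genes were wider than 93.3% to 98.0% of such GFP peaks and 93.2% to 99.0% of such Cre peaks.

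**Figure D4:**
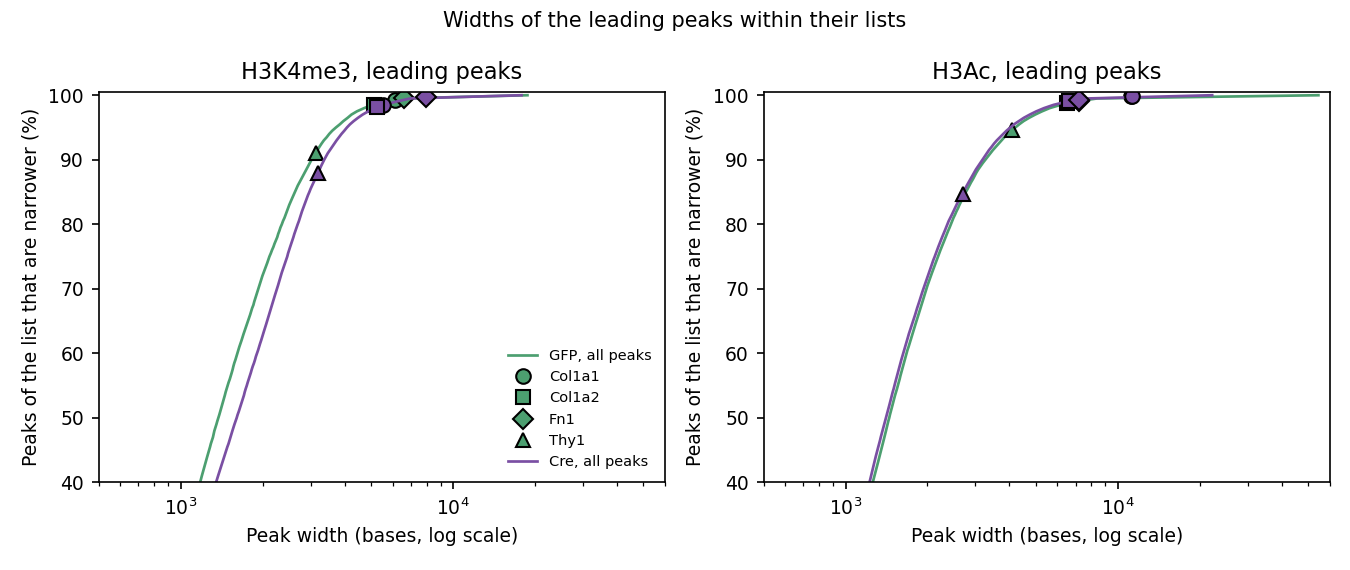
Percent of each list that is narrower (vertical axis) against peak width in bases on a log scale, with curves for all GFP (green) and Cre (purple) peaks and symbols for the leading peak of each gene. The symbols of Col1a1, Col1a2 and Fn1 lie at 98% or above for both marks, and Thy1 lies between 84.8% and 94.6%. High-scoring peaks are wide: the median H3Ac width at 3100 or more was 4010 bases in GFP and 4098 in Cre cells, against 1447 and 1407.5 in the whole lists. Among H3Ac peaks at 3100 or more, the leading peak was wider than 98.2% (GFP) and 98.6% (Cre) at Col1a1. The values were 85.8% and 87.5% at Col1a2, and 90.1% and 90.8% at Fn1.

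Thy1 was also the only gene of the 4 whose leading H3Ac peak scored below 3100. It scored 1681 in GFP and 2049 in Cre cells and ranked above 86.0% and 88.9% of the lists. In GFP cells it was a peak of 4096 bases at 43851509 to 43855604. In Cre cells the stretch was divided into a peak of 2689 bases at 43851536 to 43854224 and a weak peak of 840 bases at 43854809 to 43855648, with a score of 53.9. The summed width was thus 3529 bases in Cre cells. Around it, 3 weaker peaks in each list matched one another. From lower to higher coordinates they scored 100.95, 92.8 and 147 in GFP cells and 170, 136 and 199.6 in Cre cells. Gaps of only 14 bases in GFP and 28 bases in Cre cells parted the leading peak from its lower-coordinate neighbour. On merging within 1000 bases, the Thy1 H3Ac peaks formed 1 region of 9.30 kb in GFP and 8.82 kb in Cre cells. The narrow width of the leading H3Ac peak thus depends on how peaks were split. All H3Ac peaks of the Thy1 window had a counterpart, 4 of 4 in GFP and 5 of 5 in Cre cells, beside 73.4% and 84.6% of the whole lists. At a score of at least 100, 1 of the 4 Cre peaks had none.

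The 4 shared H3Ac regions of Thy1 all ranked higher in Cre than in GFP cells, by 5.91 to 18.6 percentile points. The largest of these (43848578 to 43850438) lay above the 90th percentile of all shared H3Ac regions, 17.3, and the other 3 did not. The 4 regions are neighbours at a single locus, and on merging within 1000 bases the Thy1 H3Ac peaks of each list became 1. They are thus not separate observations of a change. Over the 4 genes, 11 of the 17 shared H3Ac regions ranked higher and 6 lower in Cre cells. Leaving out 3 regions that scored 3100 in both lists and share a single tied change, the counts were 8 and 6 of 14. With ties taken at the middle, that tied change of 1.23 points stood above 53.4% of all shared H3Ac regions. The share of all shared regions that ranked higher was not counted, so that no background stands beside these counts. Of the 17, 15 rank changes lay between the 10th and 90th percentiles of all shared regions. In width, 8 regions were wider and 9 narrower in Cre cells, with a median log2 width ratio of -0.0040 against -0.06 for all 33794 shared regions. For H3K4me3 all 6 shared regions ranked lower in Cre cells. The share of all shared H3K4me3 regions that ranked lower was not counted. Of the 6 rank changes, 5 lay between the 10th and 90th percentiles of all shared regions. The count of 6 holds little for 4 of the regions, which scored 3100 in both lists. They share a single tied rank that depends on how many peaks hold that score or more. With ties taken at the middle, the change of those 4, -3.67 points, stood above 35.9% of all shared H3K4me3 regions. The log2 width ratio of the 6 shared H3K4me3 regions had a median of 0.04 against 0.10 for all 19333 shared regions. All 6 lay between the 10th and 90th percentiles, -0.16 and 0.50.

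**Figure D5:**
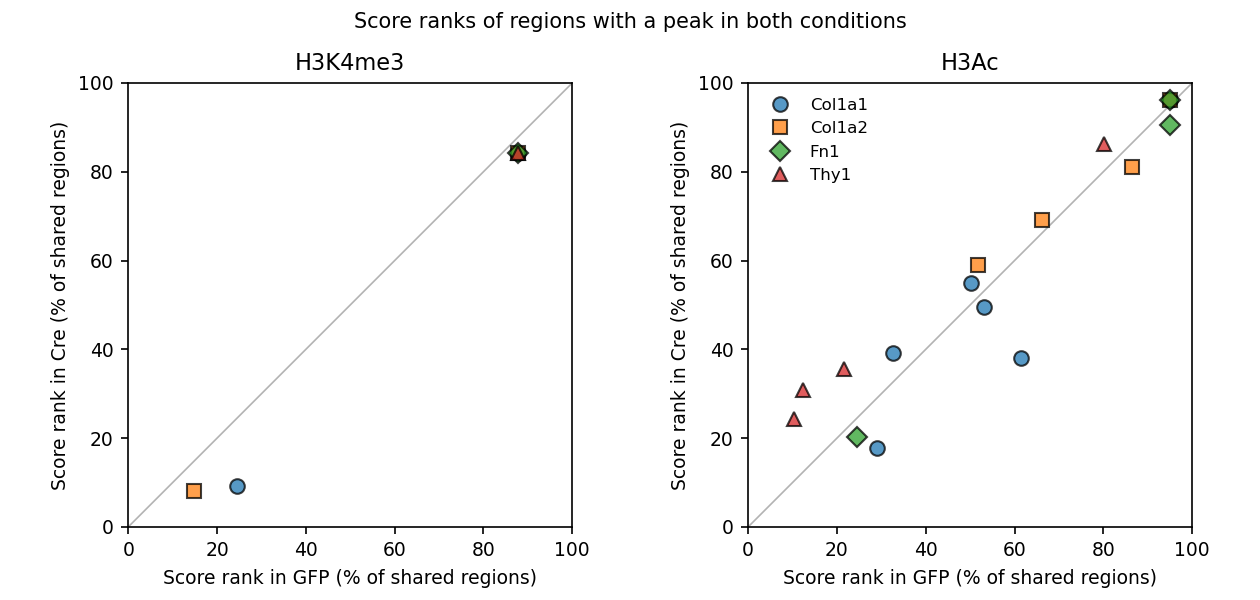
Score rank of each shared region among all shared regions of its mark, in GFP (horizontal axis) and Cre cells (vertical axis), in percent, with the line of equal rank. The 4 leading H3K4me3 regions coincide at 87.8 and 84.1 because their scores are tied, the 4 Thy1 regions of H3Ac lie above the line, and the Col1a1 region at 61.4 in GFP lies farthest below it, at 38.1 in Cre cells.

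H3K4me3 and H3Ac overlapped in all 4 windows, and most H3K4me3 peaks of the whole lists overlapped H3Ac. All 7 GFP and all 7 Cre H3K4me3 peaks of the windows overlapped an H3Ac peak of the same condition, where 80.1% (95% exact binomial interval 79.6 to 80.6) and 85.0% (84.6 to 85.5) of the whole lists did. The intervals cover counting error only. Acetylation was the more extended mark: 7 of the 29 GFP and 8 of the 22 Cre H3Ac peaks overlapped H3K4me3, beside 41.9% and 50.95% of the lists. The H3Ac peaks outside H3K4me3 summed to 14.5 kb in GFP and 14.1 kb in Cre cells at Col1a1, 9.61 kb and 4.59 kb at Col1a2, 7.94 kb and 1.14 kb at Fn1, and 2.88 kb and 4.21 kb at Thy1. At Col1a2 the fall includes the distal peak, which overlapped H3K4me3 in Cre cells.

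No H3K27me3 peak lay in any window in either condition. The H3K27me3 lists held 36059 and 36381 peaks and covered 2.60% of the genome in GFP and 2.74% in Cre cells. In the whole lists, 12.3% of GFP and 13.1% of Cre H3K4me3 peaks overlapped H3K27me3, so that most H3K4me3 peaks lacked it too. The nearest H3K27me3 peaks to a window belonged to Thy1, 15.0 kb outside it in GFP cells, with a score of 177, and 15.4 kb outside it in Cre cells, with a score of 207. For Col1a1 the distance was 47.6 kb and 51.9 kb. For Col1a2 it was 350.2 kb in GFP and 100.1 kb in Cre cells, where a Cre peak with a score of 59.96 stood on the side of lower coordinates. For Fn1 it was 537 kb and 535 kb.

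The edges of the windows set which peaks were counted. Just outside them, H3Ac peaks lay 2.75 kb from the Col1a1 window in GFP cells, with a score of 56.9, and 3.11 kb from the Fn1 window, with a score of 2917 in GFP cells. The nearest Thy1 ones lay 3.66 kb from the window in GFP and 5.18 kb in Cre cells, with scores of 155 and 1061, and those of Col1a2 over 20 kb from it. Just inside, the H3Ac peak nearest to an edge was the Fn1 peak that ended at 71729449 in GFP and 71729527 in Cre cells, with scores of 163 and 118. In RefSeq the genes next to Fn1 are Atic and Mreg, those next to Thy1 are Nectin1 and Usp2, and those next to Col1a1 are Gm11544 and Sgca. Gene positions on NCBIM37 were not used here, so that no peak is assigned to a promoter, exon or intron, and peaks in a window can belong to a neighbouring gene.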

How the data were processed

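Of the 18 samples, 8 had a peak list used here, 1 library for each of 4 marks in each of 2 conditions; the RNA, Rb and input libraries were not analysed here. The deposited lists give chromosome, start, end, a name and a score, with no header. Per the submitters' processing notes, the build was NCBIM37 and the tools included the peak caller MACS 1.4.1, with which the peak names begin, besides BWA, bedtools 2.16.2 and SAMtools 0.1.18. The control library, thresholds and read depth are not given in the sources used here. The deposited score has no stated unit, depends on depth and control, and had its lowest value at about 50, so that it was used only as a rank within a list. Rank changes between lists refer to shared regions, those with at least 1 peak of each list.

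Starts are counted from 1. Peaks were matched by overlap of at least 1 base. All peaks of the windows are reported, and the leading one is that with the highest score, ties broken by width. Thinned and shifted copies of the lists served to check the matching code. The recovered share of kept peaks differed from the true share by at most 2.47 percentage points. Shifts were small enough that every kept peak still overlapped its original by construction. The check therefore says nothing about how well separately called lists match. Planned counts at other matrix genes were not run, since no NCBIM37 annotation was given. The members and lists were chosen with earlier results of these data known. Alternatives were a minimum score of 100, merging within 1000 bases, equal list lengths, windows widened by 10000 bases, 50% overlap, a counterpart within 1000 bases and ranks without chromosome X. Python 3.11.15, NumPy 2.4.6, pandas 2.3.3, SciPy 1.17.1 and matplotlib 3.10.9 were used.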

Additional observations from a re-analysis of the deposited data

How the results depend on the processing

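Of the 76 recomputed counts of peaks, unmatched peaks and overlapping marks over the windows, 68 stayed within 1.5 times their value and 8 did not. Of the 80 recomputed H3Ac counts by gene, 63 did and 17 did not, 5 of these at Fn1, as given above. At Col1a1, the 8 Cre peaks became 5 on merging, the 2 unmatched GFP peaks became 0 at a score of at least 100 and 1 with a counterpart allowed within 1000 bases, and the 1 unmatched Cre peak became 0 on merging and also with the allowance. At Col1a2, the 3 unmatched GFP and 2 unmatched Cre peaks became 1 and 0 at a score of at least 100. At Thy1, the 4 GFP and 5 Cre peaks became 1 and 1 on merging, the GFP peaks became 8, 1 of them unmatched, in widened windows, and 1 Cre peak was unmatched at a score of at least 100. The 29 GFP and 22 Cre H3Ac peaks became 18 and 13 when peaks within 1000 bases were merged, which joins neighbours by construction. The 11 GFP H3Ac peaks without a counterpart became 7 on merging, 3 at a score of at least 100 and 8 with lists of equal length. The 1 GFP H3K9me3 peak, and with it the 1 without a counterpart, became 0 at a score of at least 100 and also 0 with lists of equal length. The H3Ac covered length was 60.9 kb in GFP and 58.3 kb in Cre cells at a score of at least 100, 74.5 and 62.99 kb on merging, and 80.1 and 69.3 kb in widened windows, and it was 66.8 kb in GFP cells with lists of equal length. H3K4me3 covered 28.5 kb in GFP and 31.1 kb in Cre cells in widened windows. The median score rank of the leading peaks at a score of at least 100 was 87.7% in GFP and 84.1% in Cre cells for H3K4me3, and 95.2% and 95.9% for H3Ac. Their median width rank on merging was 96.6% and 95.6% for H3K4me3, and 98.1% and 98.6% for H3Ac. The H3K4me3 peak counts, and the 1 Cre H3K4me3 peak without a counterpart, stayed within 1.5 times under each alternative run. No paired analysis was possible because each mark has 1 library per condition, and for the same reason no library could be left out. Read depth is unknown and limits what the absence of a weak peak can show.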
